A study of Mus musculus with 4 samples.

Results

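The insulin-like growth factor (IGF) system was followed here through 10 genes: the ligands Igf1 and Igf2, the receptors Igf1r and Igf2r, and the binding proteins Igfbp2, Igfbp3, Igfbp4, Igfbp5, Igfbp6 and Igfbp7. All probe sets that the platform annotation gives to these genes were taken, whatever their values. The genes themselves were chosen with earlier results of these data known. They were 10 of 18194 named genes, and 8 of the 10 were bright enough to be compared, among 10788 such genes in all. The cells were 3T3-L1, a mouse embryonic fibroblast line that becomes fat cells when an adipogenic mixture is added. Each of 4 cultures was measured on 1 Affymetrix 3' expression array. One culture had received an siRNA against aof2 (now Kdm1a, encoding the histone demethylase LSD1), one an siRNA against rfk (Rfk, encoding riboflavin kinase, which makes flavin mononucleotide), and one was treated with tranylcypromine, a small molecule that inhibits both monoamine oxidases and LSD1. The reference culture had received the control siRNA siGL3. For the siRNA cultures induction followed 24 h after transfection. Harvest came 24 h after induction with insulin, dexamethasone and 3-isobutyl-1-methylxanthine, in medium with 25 mM glucose and 10% serum, and these additions were shared by all 4 cultures. Tranylcypromine was put into the induction medium. Its dose was not given in the sources used here, and no siRNA is mentioned for that culture, so that an effect of the drug and of lacking transfection cannot be told apart.

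IGF1 and IGF2 are secreted peptides related to insulin. Both act mainly through the receptor tyrosine kinase IGF1R, which passes the signal to IRS proteins, PI3 kinase and AKT, and high insulin in the adipogenic mixture is known to act on preadipocytes through this receptor too. The binding proteins hold IGFs in the medium and thereby either block or prolong their action, and proteases release the ligand again. IGF2R carries no kinase signal of this sort: it takes up IGF2 for degradation and sorts lysosomal enzymes that bear mannose 6-phosphate.

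Signals are MAS5 values, a linear brightness per probe set that the authors scaled array by array. Each gene was represented by the probe set whose log2 signal, averaged over the 4 arrays, was highest. It was compared when this average lay at or above that of the middle probe set, a signal of 50.9. It was counted as higher or lower when its signals differed at least 2-fold from control siRNA, that is by 1 on the log2 scale. There was 1 array per group, so no test between conditions and no error across cultures can be given, and all values are single measurements. As a measure of array error, the control transcripts added at hybridisation (18 probe sets) had log2 differences of -0.26 to 0.21. As a measure of probe error, in the 5228 genes with several probe sets past the filter the highest and lowest log2 differences of a gene lay apart by a median of 0.31 with aof2 siRNA, 0.29 with rfk siRNA and 0.34 with tranylcypromine. The 95th percentiles of these gaps were 1.02, 1.02 and 1.24. The median signal of an array lay between 53.3 and 56.2. Kdm1a stood at 19.5% of control in the aof2 siRNA array and Rfk at 27.0% of control in the rfk siRNA array. In this bulk RNA, fewer cells of a kind and less RNA per cell cannot be told apart.

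With tranylcypromine, Igfbp3, Igfbp6, Igf1 and Igfbp4 were at least 2-fold above control. These were 4 of the 8 compared genes, against a background of 2.23% of all 10788 compared genes at least 2-fold higher. The genes and the lists below were chosen with earlier results of these data known. Their counts beside a background are therefore a description only. Igf1 is among the 4 although its control signal lay under the filter. With aof2 siRNA only Igfbp3 of the 8 passed 2-fold, against a background of 1.61%, and with rfk siRNA 0 of the 8 did, against 0.927%. In none of the 3 comparisons was any of the 8 at least 2-fold lower, where the background was 0.538% with aof2 siRNA, 0.806% with rfk siRNA and 0.945% with tranylcypromine. Of all genes past 2-fold, 75% were higher with aof2 siRNA and 70.3% with tranylcypromine, and with arrays centred on their medians these shares were 63.5% and 60.6%. The centred arrays shift all values down by less than 0.1 and left the 4 genes of the tranylcypromine array past 2-fold, whereas Igfbp3 with aof2 siRNA fell short. At a lower threshold of 1.5-fold, with aof2 siRNA 3 of the 8 were higher (Igf1, Igfbp3 and Igfbp4, background 6.26%) and 1 lower (Igfbp5, background 2.88%). With rfk siRNA 3 were higher (Igf1, Igfbp3 and Igfbp5, background 3.92%) and 0 lower (background 3.8%). With tranylcypromine the same 4 as at 2-fold were higher (background 7.48%) and 0 lower (background 4.77%). The median log2 difference of the 8 genes was 0.46 with aof2 siRNA, 0.16 with rfk siRNA and 0.84 with tranylcypromine, beside -0.0041, -0.0089 and -0.016 over all compared genes.

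**Figure D1:**
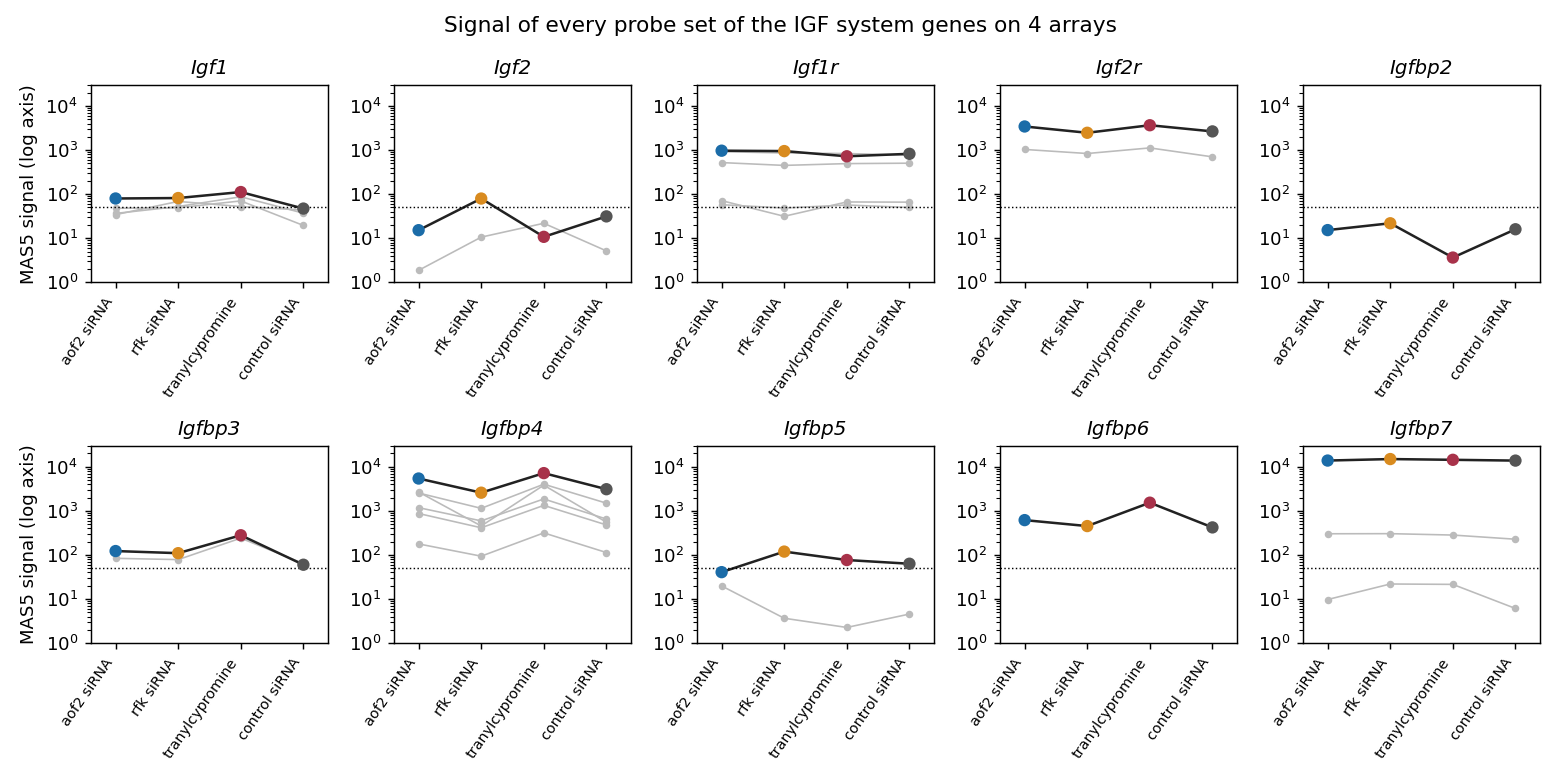
MAS5 signal (log axis) of every probe set of the 10 genes on the 4 arrays; the dark line with coloured points is the probe set that stands for the gene, grey lines are the gene's other probe sets, and the dotted line is the filter at a signal of 50.9. Igfbp3, Igfbp4 and Igfbp6 peak in the tranylcypromine array, and Igfbp7 is level on its dark line. The probe sets of Igf2 and Igfbp2 lie below the filter except for 1 value of Igf2, 79.6 with rfk siRNA.

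The promoters of the 4 genes that passed 2-fold with tranylcypromine are shown because these genes lay above control together. Each is the stretch of 250 bases before the start that RefSeq gives on GRCm38.p6, written 5' to 3' on the gene's strand. They lie at chr11:7213924-7214173 on the minus strand for Igfbp3, chr11:99040994-99041243 on the plus strand for Igfbp4, chr15:102143936-102144185 on the plus strand for Igfbp6 and chr10:87860861-87861110 on the plus strand for Igf1. Capitals mark matches, on either strand, to any of 6 motifs that were searched.
Igfbp3: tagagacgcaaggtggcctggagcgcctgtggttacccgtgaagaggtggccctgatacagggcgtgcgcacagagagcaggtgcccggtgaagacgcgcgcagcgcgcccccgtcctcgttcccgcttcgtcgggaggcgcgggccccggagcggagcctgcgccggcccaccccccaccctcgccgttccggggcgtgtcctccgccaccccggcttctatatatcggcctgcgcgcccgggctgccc
Igfbp4: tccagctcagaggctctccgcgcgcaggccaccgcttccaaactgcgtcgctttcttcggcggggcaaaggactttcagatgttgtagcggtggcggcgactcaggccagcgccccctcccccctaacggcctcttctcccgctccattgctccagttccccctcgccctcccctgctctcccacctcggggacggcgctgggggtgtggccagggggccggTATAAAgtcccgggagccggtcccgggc
Igfbp6: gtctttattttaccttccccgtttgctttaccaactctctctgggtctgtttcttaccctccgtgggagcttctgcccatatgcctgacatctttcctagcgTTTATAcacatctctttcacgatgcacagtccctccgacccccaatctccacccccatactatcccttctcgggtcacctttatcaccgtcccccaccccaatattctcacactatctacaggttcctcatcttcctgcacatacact
Igf1: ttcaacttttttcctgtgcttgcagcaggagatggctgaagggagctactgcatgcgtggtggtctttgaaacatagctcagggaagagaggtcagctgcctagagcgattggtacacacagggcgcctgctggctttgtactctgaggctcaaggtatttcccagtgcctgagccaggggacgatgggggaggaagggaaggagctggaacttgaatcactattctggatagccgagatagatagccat
The motifs were the TATA box TATAAA, the GC box GGGCGG, the E-box CACGTG, the cyclic AMP response element TGACGTCA, a C/EBP form TTGCNNAA and the glucocorticoid half-site AGAACA. Igfbp4 held TATAAA ending 22 bases before the start, and Igfbp6 held it on the other strand 142 bases before the start. Of all 32851 RefSeq promoters of this length 12.4% held TATAAA. Only these exact letters were searched, so variant forms, such as the letters tatatat near the end of the Igfbp3 window, were not counted. The other 5 motifs had no match in these 4 windows, and they occur in 32.7% (GC box), 6.02% (E-box), 1.55% (cyclic AMP element), 9.56% (C/EBP form) and 16.1% (glucocorticoid half-site) of all such promoters. The 4 windows differ in base composition. G and C made up 73.2% of the window of Igfbp3 and 69.2% of that of Igfbp4, and 49.6% and 52.8% of those of Igfbp6 and Igf1, beside a median of 52.4% over all promoters. CG dinucleotides numbered 32, 22, 7 and 5 in the windows of Igfbp3, Igfbp4, Igfbp6 and Igf1, with a median of 6 over all promoters. RefSeq gives gene starts upstream of these windows for Igfbp4 and Igf1, and which start the cells used is not known here, so distances refer to the listed start. A match in such a window is a description of its letters only.

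The ligands were dim on all arrays. Igf1 encodes the IGF that growth hormone induces in many tissues, fat included. Its brightest probe set had a signal of 79.8 with aof2 siRNA, 81.7 with rfk siRNA and 112 with tranylcypromine, against 47.1 with control siRNA. The control signal lay under the filter of 50.9, and Igf1 passed that filter through the other 3 arrays. The log2 differences were 0.76, 0.79 and 1.24, which put Igf1 at rank 372, 204 and 128 from the top of 10788 genes with aof2 siRNA, rfk siRNA and tranylcypromine. Its other 3 probe sets lay below the filter. With tranylcypromine they stood at 0.26, 1.23 and 1.85, all above control, and with rfk siRNA at 0.50, 0.65 and 1.33, again all above it. With aof2 siRNA they were split, at -0.35, -0.02 and 1.30. With an offset of 50 before the log the difference with tranylcypromine was 0.74, and against the 3 other arrays averaged it was 0.73, both short of 2-fold. The aof2 siRNA and rfk siRNA arrays were 0.034 apart for Igf1, well within the probe error.

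Igf2, the fetal growth factor of an imprinted locus, did not pass the filter. Its brighter probe set read 15.2 with aof2 siRNA, 79.6 with rfk siRNA and 10.8 with tranylcypromine, against 31.3 with control siRNA. The dimmer one read 1.87, 10.6 and 21.9 in those arrays, against 5.17 with control siRNA. Both probe sets were lowest in one of the LSD1-related arrays, but they disagreed on which, and with tranylcypromine their log2 differences were -1.54 and 2.08. No direction can be read from signals of this size.

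Of the receptors, Igf2r was above control in the aof2 siRNA and tranylcypromine arrays on both of its probe sets. Igf1r, the signalling receptor, differed from control by less than 0.25 on the log2 scale for the probe set that stands for it. That probe set of Igf1r had 968 with aof2 siRNA, 949 with rfk siRNA and 723 with tranylcypromine, against 822 with control siRNA. The log2 differences were 0.24, 0.21 and -0.19, each smaller than the median gap between probe sets of one gene. A second bright probe set gave 0.26, 0.16 and 0.12 and another gave 0.04, -0.17 and -0.03, so the sign for rfk siRNA and tranylcypromine depended on the probe set. With aof2 siRNA all 5 probe sets were above control, by 0.04 to 0.26. The one large value of Igf1r was -1.06 with rfk siRNA, from a dim probe set with 31.5 in that array and 65.9 in the control array.

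Igf2r, the receptor that clears IGF2, had 3427 with aof2 siRNA, 2467 with rfk siRNA and 3657 with tranylcypromine, against 2651 with control siRNA. The dimmer probe set had 1033, 835 and 1119 in those arrays, against 702 with control siRNA. The log2 differences were 0.37 and 0.56 with aof2 siRNA and 0.46 and 0.67 with tranylcypromine, above the median probe gap but short of 2-fold. With rfk siRNA they were -0.10 and 0.25, of opposite sign. The aof2 siRNA and tranylcypromine arrays lay only 0.09 apart. A further probe set is annotated to both Igf2r and its antisense neighbour Airn, read 41.7, 36.3 and 48.9 in the treated arrays against 51.0 with control siRNA, and names neither gene.

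Igfbp3, the main carrier of IGFs in serum, had the largest log2 difference among the 8 compared genes, with tranylcypromine. With an offset of 50 before the log Igfbp6 exceeded it, with Igfbp6 at 1.75 and Igfbp3 at 1.58. It also did when tranylcypromine was set against the 3 other arrays averaged, with Igfbp6 at 1.65 and Igfbp3 at 1.59. The brighter probe set of Igfbp3 read 122 with aof2 siRNA, 109.5 with rfk siRNA and 279 with tranylcypromine, against 59.9 with control siRNA. The tranylcypromine array was the highest and the control array the lowest. The fold over control was 4.66 with tranylcypromine (log2 difference 2.22, rank 21 from the top of 10788), 2.04 with aof2 siRNA (1.03, rank 157) and 1.83 with rfk siRNA (0.87, rank 158). The second probe set read 83.7, 78.3 and 240.2 in those arrays, against 63.8 with control siRNA. It gave log2 differences of 0.39, 0.29 and 1.91. Both probe sets thus placed Igfbp3 at least 3.76-fold above control with tranylcypromine, while the 2-fold call with aof2 siRNA rested on one of the 2, whose identifier marks it as able to match several transcripts, and most of the other settings lost that call. Tranylcypromine stood 2.28-fold and 2.87-fold above aof2 siRNA on the 2 probe sets, a comparison that does not use the control array.

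Igfbp4 encodes a binding protein that mostly inhibits IGF action and is cleaved by the protease PAPP-A. It was the best-measured member, with 6 probe sets past the filter. The brightest had 5403 with aof2 siRNA, 2577 with rfk siRNA and 7159.7 with tranylcypromine, against 3091 with control siRNA. All 6 probe sets gave the same order of the 4 arrays, with tranylcypromine highest, aof2 siRNA next, then control siRNA, and rfk siRNA lowest. With tranylcypromine all 6 were at least 2-fold above control, with log2 differences of 1.21 to 2.79. With aof2 siRNA they lay between 0.65 and 2.28, and 1 of the 6 passed 2-fold. The probe set furthest from the others had 2670 with aof2 siRNA, 453 with rfk siRNA and 3817 with tranylcypromine, against 551 with control siRNA. Its identifier marks it as able to match several transcripts, and it gave 2.28 and 2.79 where the other 5 gave at most 0.86 and 1.51. With rfk siRNA all 6 lay below control by small amounts, from -0.39 to -0.14. All 6 identifiers carried the endings _a_at, _s_at or _x_at, taken here together as able to match several transcripts, of the same gene or of others. Without such probe sets Igfbp4 had none left.

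Igfbp6, which binds IGF2 in preference to IGF1, had 1 probe set. Its signal was 615 with aof2 siRNA, 451 with rfk siRNA and 1530.0 with tranylcypromine, against 420.5 with control siRNA. The tranylcypromine array stood alone, 3.64-fold above control (log2 difference 1.86, rank 38 from the top) and 2.49-fold above aof2 siRNA. With aof2 siRNA the difference was 0.55, larger than the median probe gap but within its 95th percentile, and with rfk siRNA it was 0.10, within the range of the hybridisation controls.

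Igfbp5 encodes a binding protein that also attaches to matrix. It went the other way from Igfbp4 in the siRNA arrays. Its brighter probe set had 40.7 with aof2 siRNA, 119 with rfk siRNA and 76.5 with tranylcypromine, against 63.1 with control siRNA. The log2 differences were -0.63, 0.92 and 0.28, so the rfk siRNA array was highest and the aof2 siRNA array lowest. The other probe set read at most 19.8 and was highest with aof2 siRNA, the opposite order, so the direction of Igfbp5 rests on 1 dim probe set.

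Igfbp7 encodes a secreted protein with weak affinity for IGFs. It was level on its brightest probe set, which had 13801 with aof2 siRNA, 14920.1 with rfk siRNA and 14346 with tranylcypromine, against 13767 with control siRNA. The whole range over the 4 arrays was 0.12 on the log2 scale. A dimmer probe set gave 0.41, 0.42 and 0.31, all above control. Igfbp2, which encodes a binding protein that preadipocytes are known to secrete, read 15.3 with aof2 siRNA, 21.9 with rfk siRNA and 3.65 with tranylcypromine, against 16.0 with control siRNA. All 4 values lay under the filter, and the log2 difference of -2.13 with tranylcypromine rests on signals too dim to be compared.

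**Figure D2:**
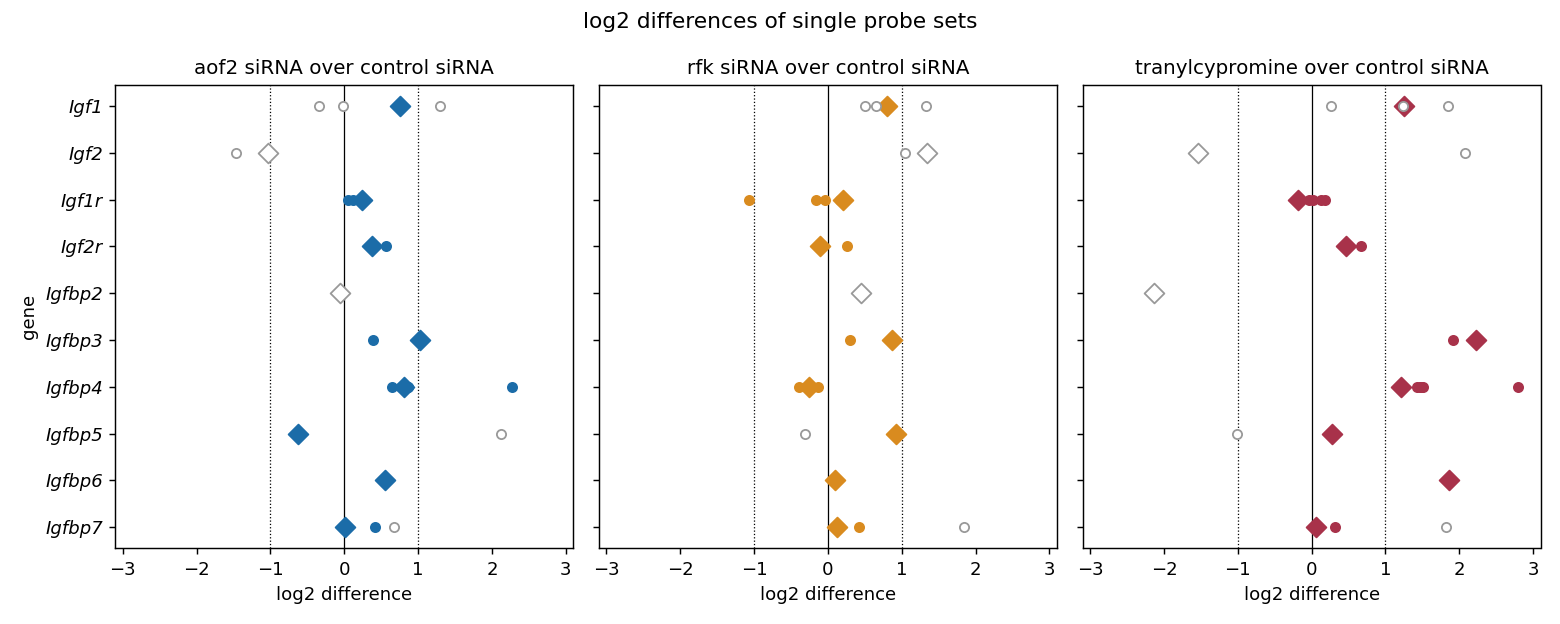
log2 difference from control siRNA of each probe set, by gene and comparison; diamonds stand for the gene, circles are its other probe sets, filled symbols passed the filter, and dotted lines mark 2-fold. With tranylcypromine all 6 filled symbols of Igfbp4 lie between 1.21 and 2.79 and both of Igfbp3 at 1.91 and 2.22, whereas open symbols of Igf2, Igfbp5 and Igfbp7 scatter widely.

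**Figure D3:**
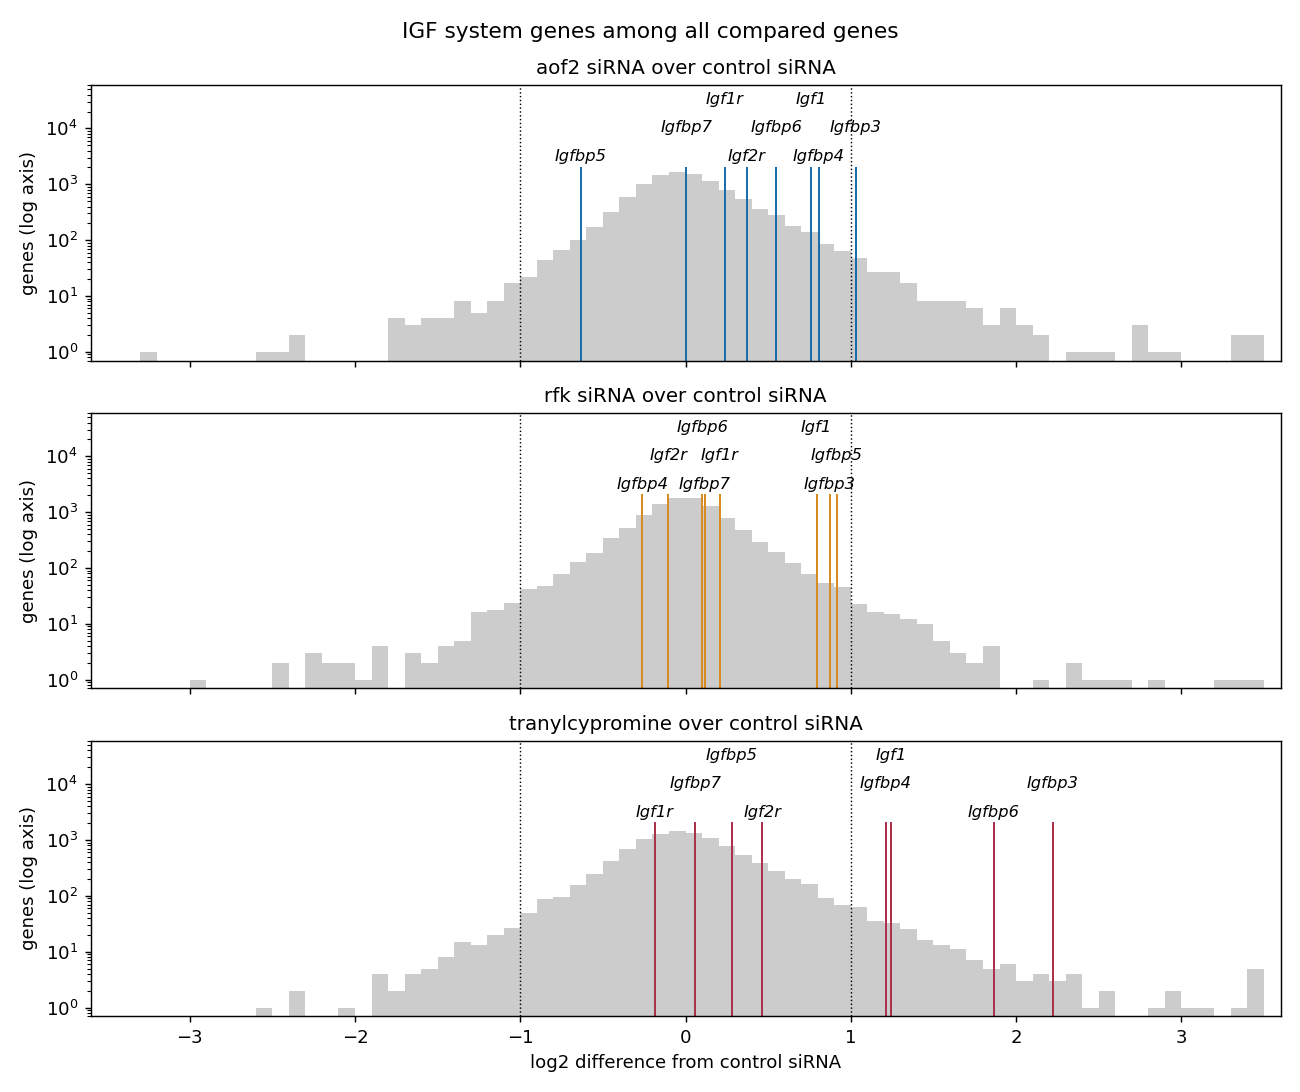
Number of compared genes (log axis) by log2 difference from control siRNA, in steps of 0.1, with the 8 compared IGF system genes as coloured lines; values beyond the ends of the axis are drawn in the outermost bars, and dotted lines mark 2-fold. Igfbp3 and Igfbp6 stand in the sparse upper part of the tranylcypromine distribution, at 2.22 and 1.86, while Igf1r and Igfbp7 lie in its bulk.

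Genes that control how much IGF is free were looked at beside the members, from whole lists of the pathway. Of 12 genes of IGF availability and proteolysis 8 were compared. With tranylcypromine 0 were at least 2-fold higher (background 2.23%) and 1 was at least 2-fold lower (background 0.945%), with a median of -0.11. That 1 was Pappa, the protease that cleaves IGFBP4, with 737 in aof2 siRNA, 1144 in rfk siRNA and 444 in tranylcypromine, against 903 in control siRNA. The log2 difference of Pappa with tranylcypromine was -1.02 on this probe set, but its 3 probe sets past the filter ranged up to 0.20. Pappa2, a related protease, stood at -0.60, -0.32 and -0.61 with aof2 siRNA, rfk siRNA and tranylcypromine on its one probe set past the filter. Stc1, which encodes the PAPP-A inhibitor stanniocalcin-1, stood at -0.74 with rfk siRNA from signals of 35.8 in that array and 60.02 in the control array. With aof2 siRNA and rfk siRNA 0 of these 8 were past 2-fold, and their medians were 0.03 and -0.18. The highest of the list were Stc2 at 0.30 and Kazald1 at 0.29 with aof2 siRNA, Pappa at 0.34 with rfk siRNA (its probe sets ranged down to -0.79), and Kazald1 at 0.37 with tranylcypromine, and Adam12, a metalloprotease, stood at -0.34 with rfk siRNA. The binding protein gene Igfbp1 and Igfals, which encodes another part of the serum complex, had signals of at most 7.48 and were not compared.

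Of 29 genes of insulin and IGF receptor signalling 24 were compared, and their medians were -0.01 with aof2 siRNA, -0.01 with rfk siRNA and 0.06 with tranylcypromine. On the probe sets that stand for them, the genes past 2-fold numbered 0 in both directions with aof2 siRNA and with tranylcypromine. With rfk siRNA 1 was lower, against a background of 0.806%. This was Grb14, an adaptor that inhibits the insulin receptor, with 719 in rfk siRNA against 1451 in control siRNA (-1.01, on 1 probe set). Irs2, an adaptor downstream of IGF1R, stood at 0.64 with rfk siRNA and within 0.07 of control in the other arrays. The 2 highest and 2 lowest with aof2 siRNA were Grb10, another inhibitory adaptor, at 0.48, Foxo1, a transcription factor that AKT restrains, at 0.39, Grb2 at -0.36 and the PI3 kinase gene Pik3cb at -0.27. With tranylcypromine the 2 highest and 2 lowest were Shc1 at 0.54, Pik3cb at 0.53, Ptpn1, a phosphatase that acts on the insulin receptor, at -0.24, and Grb2 at -0.22. With rfk siRNA Pik3r1, the regulatory subunit of PI3 kinase, followed Irs2 at 0.41, and Insr, the insulin receptor gene, followed Grb14 at -0.34. Probe sets of Shc1 differed in sign with aof2 siRNA and tranylcypromine, and those of Grb2 did in all 3 comparisons.

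Of 7 genes of the growth hormone axis, which leads to Igf1, all were compared and 0 passed 2-fold in any comparison. With aof2 siRNA their median was 0.47, and 3 were at least 1.5-fold higher, where the background was again 6.26%. These 3 were Socs2, a feedback inhibitor of growth hormone signalling, at 0.96, Stat5b, the transcription factor that activates Igf1, at 0.83, and the growth hormone receptor gene Ghr at 0.73. Socs2 had 1842 with aof2 siRNA, 1376 with rfk siRNA and 1139 with tranylcypromine, against 949 with control siRNA, and its 3 probe sets lay between 0.94 and 0.99 with aof2 siRNA. Ghr had 5278, 3971 and 4306 in those arrays, against 3176 with control siRNA, with 3 probe sets between 0.54 and 0.73 with aof2 siRNA. The second probe set of Stat5b gave -0.30 with aof2 siRNA and -0.32 with tranylcypromine. Socs3, a broader cytokine feedback inhibitor, was the furthest below control with aof2 siRNA at -0.15 and with rfk siRNA at -0.54, and Jak2, the kinase of the receptor, lay within 0.14 of control throughout. The medians were 0.09 with rfk siRNA and 0.33 with tranylcypromine, where Stat5b stood at 0.57 and Cish, another feedback inhibitor, at 0.49.

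Of 12 genes of IGF mRNA binding and of imprinted loci 8 were compared and 0 passed 2-fold. Their medians were -0.09 with aof2 siRNA, 0.19 with rfk siRNA and -0.02 with tranylcypromine. Igf2bp1 and Igf2bp3, which encode proteins that bind Igf2 mRNA, stayed within 0.28 of control on the probe sets that stand for them. The other probe sets of Igf2bp1 disagreed, with a range over its 4 probe sets of -0.45 to 0.72 with aof2 siRNA and of -1.06 to 0.38 with tranylcypromine, and those of Igf2bp3 reached -0.52 with tranylcypromine. The imprinted gene Peg3 stood at -0.26 with aof2 siRNA, 0.39 with rfk siRNA and -0.60 with tranylcypromine, Dlk1 at 0.40 with rfk siRNA, and the non-coding Meg3 stood at 0.44, -0.15 and 0.79 from a control signal of 59.8. Other probe sets of Peg3 and Dlk1 passed 2-fold. The 3 of Peg3 reached down to -1.02 with aof2 siRNA and -1.10 with tranylcypromine. The 2 of Dlk1 lay at 0.32 and 1.16 with aof2 siRNA. Hmga2, which promotes Igf2bp2 transcription, stood at -0.49 with aof2 siRNA.

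**Figure D4:**
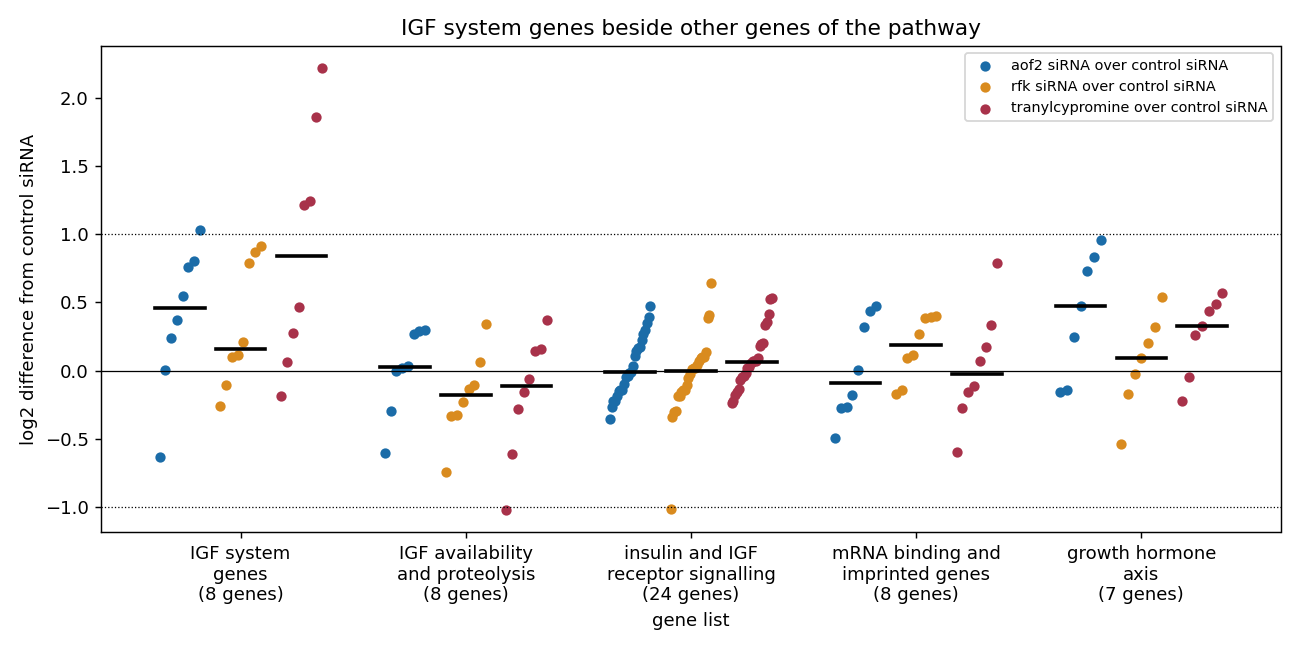
log2 difference from control siRNA of each compared gene in 5 lists (points) with the list's median (bar), for the 3 comparisons; dotted lines mark 2-fold. The IGF system genes reach 2.22 with tranylcypromine, while receptor signalling genes cluster around 0 and the growth hormone axis has its highest median, 0.47, with aof2 siRNA.

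Among genes with a mean signal of at least 414, those whose 3 log2 differences lay closest to the 3 most variable members were looked up, over 4 arrays and 6868 candidate genes. Closest to Igfbp3 was Tm7sf2, which encodes a sterol reductase, at a distance of 0.46 with differences of 0.74 (aof2 siRNA), 0.99 (rfk siRNA) and 1.88 (tranylcypromine). It was followed by Uap1l1 and St6gal1 at 0.65 and 0.69. Closest to Igfbp6 were Dock9 (0.40, with differences of 0.68, -0.16 and 1.59), Uap1l1 (0.53) and the water channel gene Aqp1 (0.56). Closest to Igfbp5 were Umps (0.49), Sinhcaf (0.56) and the folate carrier gene Slc19a1 (0.58). With 4 arrays such closeness is a description.

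The cell type was checked against markers. All 8 fibroblast and preadipocyte markers passed the filter, with summed signals of 88922, 90464 and 90187 in the aof2 siRNA, rfk siRNA and tranylcypromine arrays, against 85407 with control siRNA. Vim and Col1a2 made up most of these sums. The median log2 differences of the 8 were 0.06, 0.04 and 0.06, and 4, 5 and 5 of them lay above control. Col1a1 was the lowest in each comparison, at -0.55, -1.01 and -0.98, and its second probe set gave -0.11, -0.59 and -0.58. Of 8 adipogenic and adipocyte markers 6 passed, with sums of 25723, 25561 and 23046 in the treated arrays, against 26763 with control siRNA. The late markers Adipoq and Cd36 lay under the filter in all arrays, with at most 22.01 and 33.4. The 6 had medians of -0.02 with aof2 siRNA, 0.02 with rfk siRNA and -0.38 with tranylcypromine, and 3, 4 and 1 of them lay above control. Fabp4, which carries fatty acids inside fat cells, was lowest of the 6 in each comparison, at -0.92, -1.64 and -1.17. Cebpa, a late adipogenic transcription factor, was the highest with aof2 siRNA, at 0.56, and Cebpd, an early one, the highest with rfk siRNA, at 0.27. Of 6 endothelial markers only Kdr passed the filter, from signals of 57.7, 69.3 and 70.5 in those arrays against 29.0 with control siRNA, and Pecam1, Cdh5, Tek, Tie1 and Vwf read at most 21.4. The summed endothelial signal was 109.2, 94.3 and 120.1 in the treated arrays, against 67.9 with control siRNA. Of 6 macrophage markers Csf1r and Cd14 passed, and the sums were 541, 343 and 668, against 470 with control siRNA. Epithelial markers (1 of 5 passed) summed to 408, 292 and 340 in the treated arrays, against 288 with control siRNA, and skeletal muscle markers (2 of 5) to 169, 323 and 193, against 213. The part of any of these in the differences of the IGF system genes was not tested.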

How the data were processed

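Total RNA (250 ng) from each of 4 cultures was labelled with biotin and hybridised to 1 array, per the labels' protocols. The deposited intensity values are MAS5 signals for 45101 probe sets, per the submitters' processing notes, and the MAS5 version, scaling target and detection calls were not given in the sources used here. With 2% of probe sets trimmed at either end the mean was 500.003 on each array, so the authors had scaled the intensities. They were taken to log2 here with no offset. Of the probe sets 34958 had 1 gene symbol, 932 several and 9211 none, and those with several named no gene. Symbols were checked through gene identifiers in the RefSeq table of GRCm38.p6, in which 34754 matched and 0 changed. The 10 members had 28 probe sets with 1 symbol, of which 20 passed the filter. Promoters came from RefSeq, GRCm38.p6, and all 10 members matched by symbol. No count model applies to these intensities and no test was possible with 1 array per group. Named genes were the members, the targeted genes, per comparison the highest and lowest of each of 4 pathway lists and any past 2-fold, and the closest genes by Euclidean distance. Markers and other genes were named after seeing their values. The members and lists were chosen with earlier results of these data known. Tried as alternatives were 9 settings and 1 added after seeing the data. Precision is limited by the number of arrays. The tools were pandas 2.3.3 and NumPy 2.4.6 under Python 3.11.15, with matplotlib 3.10.9 for figures.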

Additional observations from a re-analysis of the deposited data

How the results depend on the processing

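With tranylcypromine the count of 4 members at least 2-fold higher became 2 (Igfbp4 and Igfbp6) with the stricter filter and 2 (Igfbp3 and Igfbp6) without probe sets that can match several transcripts, in both cases because genes left the comparison. It was 3, without Igf1, with an offset of 50 before the log and with the 3 other arrays' mean in place of control. Igfbp6 passed under every alternative run. Over all genes, those higher with tranylcypromine numbered 67 of 6873 with the stricter filter and 219 of 9345 without those probe sets. They numbered 122 of 10802 with the offset and 104 of 10788 against the 3 other arrays. With aof2 siRNA the count of 1 higher member became 0 with median centring, quantile normalization, an offset of 50, the stricter filter, without those probe sets and with the 3 other arrays' mean as reference, and 3 at a 1.5-fold threshold. With the mean of all probe sets it was 1 but another gene, Igfbp4 at 1.04, with Igfbp3 at 0.71. Over all genes, those higher with aof2 siRNA were 6.26% at 1.5-fold, and 210 of 9912 with the mean of all probe sets. Against the 3 other arrays' mean Igfbp3 with aof2 siRNA stood at -0.00039 on the log2 scale. It was the one called value to change sign, because that mean holds the higher tranylcypromine value. Members at least 2-fold lower with aof2 siRNA numbered 1 with no filter (Igf2), 1 against the 3 other arrays (Igfbp5) and 1 at 1.5-fold (Igfbp5), where the main count was 0. Higher with rfk siRNA were 1 with no filter (Igf2), 1 against the 3 other arrays (Igfbp5) and 3 at 1.5-fold, with a main count of 0. Lower with tranylcypromine were 2 with no filter (Igf2 and Igfbp2), again with a main count of 0. With no filter all 10 members were compared. Of all 18194 genes then, 1502 were lower with aof2 siRNA, 1809 higher with rfk siRNA and 1557 lower with tranylcypromine. Against the 3 other arrays 29 of 10788 genes were lower with aof2 siRNA and 42 higher with rfk siRNA. At 1.5-fold the backgrounds were 2.88% lower with aof2 siRNA and 3.92% higher with rfk siRNA. The requirement that all probe sets past the filter differ at least 2-fold the same way, chosen after seeing the data, took the 1 higher member with aof2 siRNA to 0 and left the other counts as they were. Igf1 and Igfbp6 had 1 probe set past the filter each, so for these genes the requirement could not change the call. Of the 24 log2 differences of single members 15 kept their sign under every setting in which the gene was compared.

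Over all genes, the numbers at least 2-fold higher and lower depended on the filter. Among 10788 genes they were 174 and 58 with aof2 siRNA, 100 and 87 with rfk siRNA and 241 and 102 with tranylcypromine. With no filter, among 18194 genes, they were 2016 and 1502, 1809 and 1697, and 2234 and 1557. With the stricter filter, among 6873 genes, they were 38 and 7, 23 and 17, and 67 and 21. With the offset, among 10802 genes, they were 70 and 14, 44 and 27, and 122 and 29. At 1.5-fold they were 675 and 311, 423 and 410, and 807 and 515. Against the 3 other arrays they were 45 and 29, 42 and 104, and 104 and 80. With the mean of all probe sets, among 9912 genes, the lower genes numbered 94, 149 and 199. No paired analysis was possible because each group has 1 array. Low signal limits Igf1, Igf2, Igfbp2, Igfbp3 and Igfbp5, and with the offset the log2 differences of Igfbp3 were 0.65 (aof2 siRNA), 0.54 (rfk siRNA) and 1.58 (tranylcypromine); detection calls were not used here.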
